A study of Mus musculus with 138 samples.

Results

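Transcripts of 9 genes of the p53 and DNA damage checkpoint pathway were measured in libraries from mouse embryos at the 2-cell stage. The genes are Atm, Atr, Chek1, Chek2, Trp53, Mdm2, Mdm4, Cdkn1a and Ccng1. They were chosen by name for their roles in the pathway, and all 9 were found among the 25900 genes of the count tables. Each library held the polyadenylated RNA of 1 plate well, prepared as the RNA side of scNMT-seq, which also profiles DNA methylation and open chromatin.

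The libraries fell into 5 embryo groups in 2 experiments that ask what loss of the chromatin remodeller SMARCA5 does at the time the embryonic genome is switched on. In the deletion experiment, 28 libraries came from embryos labelled Smarca5 +/- (mat KO), which per the design text came from Smarca5 mat KO females mated with wild-type males, and 22 came from embryos labelled Smarca5 +/+, called wild type here. The titles of both groups name matKO females, the Cre line is not given in the sources used here, and loss of the maternal product and heterozygosity of the embryo cannot be told apart. In the TrimAway experiment, wild-type zygotes were injected with an antibody to SMARCA5 (31 libraries) or with IgG (20 libraries), or were left uninjected (15 libraries). TrimAway directs an antibody-bound protein to degradation through TRIM21, so it acts on the protein, and those embryos were taken at least 24 hours after injection. Embryos were pooled in numbered collections, 1 and 2 for the deletion and 1, 2 and 3 for TrimAway, where the kept IgG and uninjected libraries came from collections 1 and 3 only. Per the design text these are technical replicates, so p-values measure only the spread between these libraries, which come from few pools. Trim21 RNA differed between the IgG collections, at 0 counts in all 10 kept libraries of collection 1 and above 3 counts in 8 of 10 in collection 3, and it was above 3 counts in 30 of 31 anti-SMARCA5 libraries. The labels do not say what was injected with the IgG, so in collection 1 the antibody and Trim21 cannot be told apart. Fewer cells of a kind and less RNA per cell cannot be told apart in them.

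ATM and ATR are kinases that are switched on by DNA damage, ATM mainly by double-strand breaks and ATR mainly by single-stranded DNA at stalled forks. They activate the effector kinases CHK2 and CHK1, which hold back entry into S phase or mitosis. p53, the product of Trp53, is a transcription factor that these kinases stabilise. MDM2 is the ubiquitin ligase that keeps p53 low, MDM4 is its partner that blocks p53 activity, and Mdm2, Cdkn1a and Ccng1 are textbook p53 target genes, so that p53 and MDM2 form a feedback loop. In the oocyte CHK2 is known for removing cells with unrepaired breaks. In a 2-cell embryo an mRNA can be left over from the egg or be newly made, and counts do not separate these sources.

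The upstream sequences of 6 of the genes are shown. They include windows with and without a p53 half-site, the 10-base element that p53 binds in pairs. Each holds the 250 bases before the RefSeq start site on GRCm38.p6, written on the strand of the gene. Capitals mark the p53 half-site and 3 common promoter elements, searched on both strands. The GC box was searched for as GGGCGG. The CCAAT box was searched for by its 5 named letters, and the TATA box as TATAAA. Mdm2 is chr10:117710759-117711008 (minus strand), Cdkn1a is chr17:29090729-29090978 (plus), Ccng1 is chr11:40755287-40755536 (minus), Trp53 is chr11:69580109-69580358 (plus), Mdm4 is chr1:133025417-133025666 (minus) and Chek2 is chr5:110839733-110839982 (plus).
Mdm2: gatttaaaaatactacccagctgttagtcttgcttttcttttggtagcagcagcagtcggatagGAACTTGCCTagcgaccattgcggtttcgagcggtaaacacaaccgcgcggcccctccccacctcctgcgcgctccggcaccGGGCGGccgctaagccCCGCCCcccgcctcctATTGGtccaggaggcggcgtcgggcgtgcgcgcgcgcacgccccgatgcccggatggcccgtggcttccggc
Cdkn1a: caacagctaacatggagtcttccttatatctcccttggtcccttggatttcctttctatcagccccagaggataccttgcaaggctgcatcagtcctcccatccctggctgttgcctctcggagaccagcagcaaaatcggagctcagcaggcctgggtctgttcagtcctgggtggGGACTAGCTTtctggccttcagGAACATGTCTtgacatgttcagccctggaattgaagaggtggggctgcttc
Ccng1: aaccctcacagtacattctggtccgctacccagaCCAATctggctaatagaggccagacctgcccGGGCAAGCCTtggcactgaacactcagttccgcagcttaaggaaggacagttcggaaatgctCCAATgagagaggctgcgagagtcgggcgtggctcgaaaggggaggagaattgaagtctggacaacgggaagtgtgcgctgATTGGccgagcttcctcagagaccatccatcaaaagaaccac
Trp53: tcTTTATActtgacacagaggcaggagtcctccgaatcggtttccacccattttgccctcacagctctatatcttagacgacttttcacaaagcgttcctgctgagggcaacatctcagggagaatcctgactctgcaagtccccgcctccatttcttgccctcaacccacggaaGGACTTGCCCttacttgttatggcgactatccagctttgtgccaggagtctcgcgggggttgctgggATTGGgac
Mdm4: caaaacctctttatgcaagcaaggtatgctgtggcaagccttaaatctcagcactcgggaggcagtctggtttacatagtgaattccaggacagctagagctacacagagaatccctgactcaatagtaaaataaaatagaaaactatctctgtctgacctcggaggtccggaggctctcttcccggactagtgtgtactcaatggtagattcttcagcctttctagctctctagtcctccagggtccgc
Chek2: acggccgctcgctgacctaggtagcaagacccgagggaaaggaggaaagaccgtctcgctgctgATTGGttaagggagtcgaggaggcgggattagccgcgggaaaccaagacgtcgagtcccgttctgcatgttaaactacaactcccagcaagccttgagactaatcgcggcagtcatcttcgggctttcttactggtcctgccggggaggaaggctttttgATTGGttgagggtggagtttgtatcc

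The half-site matched in 4 of the 9 windows, those of Mdm2, Cdkn1a, Ccng1 and Trp53, and in 7.13% of all 32851 windows of this length. Cdkn1a held it 2 times, as GGACTAGCTT from -73 to -64 and GAACATGTCT from -51 to -42 relative to the start site. Mdm2 held GAACTTGCCT from -186 to -177, Ccng1 held GGGCAAGCCT from -185 to -176 and Trp53 held GGACTTGCCC from -75 to -66. The windows of Atm, Atr, Chek1, Chek2 and Mdm4 held no match. A CCAAT box, present in 33.8% of all windows, occurred 3 times before Ccng1, 2 times before Chek2 and 1 time each before Atm, Trp53 and Mdm2. The GC box, present in 32.7% of all windows, occurred 2 times before Atr and before Mdm2 and 1 time before Atm. The E-box CACGTG, found in 6.02% of windows, occurred before none of the 9 genes. The same was true of the cell cycle element TTTGAA, found in 16.0%, while the TATA box, found in 12.4%, occurred before Trp53 only. The window of Chek1 lies wholly within exons of other annotated transcripts of that gene, and 69 bases of the Atm window do, so these 2 are not printed. Of the printed windows, that of Mdm4 lies wholly within the GENCODE span of its gene, outside its exons, so it is upstream of the RefSeq start site only. The windows of Ccng1, Chek2 and Cdkn1a overlap annotated exons of their genes by 25, 4 and 3 bases. Only these windows, each before 1 RefSeq start site, were searched. Sites elsewhere in a gene or at its other start sites are not covered. A match is a description of letters, and binding was not measured in these libraries.

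Kept libraries held between 109007 and 12004992 counts, with a median of 1469197, and 19 embryo libraries under 100000 counts were left out. The group medians were 545264.5 counts for wild type, 1618485.5 for maternal deletion, 1481635 for anti-SMARCA5, 1708008 for IgG and 1460667 for uninjected. Levels below are CPM, counts scaled to the TMM-adjusted library size, and the 2 experiments were scaled separately, so levels set across them are side by side only. Smarca5 RNA, the check of the deletion, had a median of 93.8 CPM in maternal deletion and 387.0 CPM in wild type (log2 fold change -2.06, SE 0.31, adjusted p = 2.63e-07). All 28 maternal deletion libraries lay below the wild-type median. In TrimAway, Smarca5 RNA had a median of 321.8 CPM with anti-SMARCA5, 631.3 CPM with IgG and 464.3 CPM in uninjected libraries. Against IgG its log2 fold change was -0.65 (SE 0.27, adjusted p = 0.124), and it fell by 1.02 with the collection as a replicate block (adjusted p = 0.0138) and by 1.76 within collection 3 (adjusted p = 0.0244). Judged by Smarca5 and the oocyte gene Gdf9, 1 library labelled maternal deletion and 2 labelled wild type went against their labels, and 1 labelled anti-SMARCA5 held no Trim21 counts. Results are given with these 4 libraries, and without them where a call of a member changed or its value is given. These libraries were picked from the same counts after the data were seen, so fits without them are not a separate check. The 6 oocyte markers summed to a median of 9166 CPM (478 to 28840) in maternal deletion and 1060 CPM (207 to 3980) in wild type. The 2-cell stage markers, of which 7 of 8 were in the tables, summed to a median of 277.5 CPM (0 to 1528) and 546.7 CPM (46.3 to 1512). The oocyte medians were 9681 CPM in maternal deletion and 2877 CPM in wild type in collection 1, and 8254 and 460.4 CPM in collection 2. Those of the 2-cell markers were 161.5 and 865.8 CPM in collection 1, but 284.4 and 286.7 CPM in collection 2. The oocyte markers were thus higher in maternal deletion in both collections, and the 2-cell markers were lower in collection 1 only. Their part in the results below was not tested. The 8 cumulus cell markers summed to at most 38.8 CPM and the 4 sperm markers to at most 22.03 CPM in any library of the deletion experiment. In TrimAway the cumulus markers reached 124.6 CPM with anti-SMARCA5, 34.7 with IgG and 93.1 in uninjected libraries. The 6 later embryo markers had medians of 21.3 CPM (0 to 984.9) in maternal deletion and 3.62 CPM (0 to 55.6) in wild type. These were 4.8 and 7.32 CPM in collection 1 and 93.5 and 0.20 CPM in collection 2. In TrimAway they were 57.1 CPM with anti-SMARCA5, 16.9 with IgG and 11.9 in uninjected libraries. Their part was not tested either.

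Per kilobase of transcript, Mdm4 was the most abundant of the 9 in every group, with a median of 269.7 CPM per kilobase in wild type and 241.7 in uninjected embryos. It exceeded Mdm2 in all libraries of all 5 groups. In wild-type embryos the medians per kilobase then ran from Chek2 (55.95) and Mdm2 (55.3) over Cdkn1a (37.1) and Chek1 (36.8) to Trp53 (19.3), Atm (12.4), Atr (0.629) and Ccng1 (0.210). Uninjected embryos had the same order down to Atm, with 62.3 for Chek2, 56.2 for Mdm2, 40.2 for Cdkn1a, 37.9 for Chek1, 27.8 for Trp53 and 13.4 for Atm, and below it Ccng1 (6.43) lay above Atr (1.89). The neighbours Chek2 and Mdm2, and Cdkn1a and Chek1, were not apart beyond the spread of single libraries in either control group. In maternal deletion embryos the order was Mdm4 (658.2), Mdm2 (114.0), Chek1 (86.9), Trp53 (11.3), Cdkn1a (11.1), Chek2 (9.07), Atm (5.13), Ccng1 (3.36) and Atr (2.73). The order was not the same in each collection: Chek2 was below Chek1 and Mdm2 in wild-type collection 1 (40.4, 101.3 and 50.9) and above both in collection 2 (92.9, 17.97 and 58.6). The levels in every library are shown in the plot of the 9 genes by group.

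**Figure D1:**
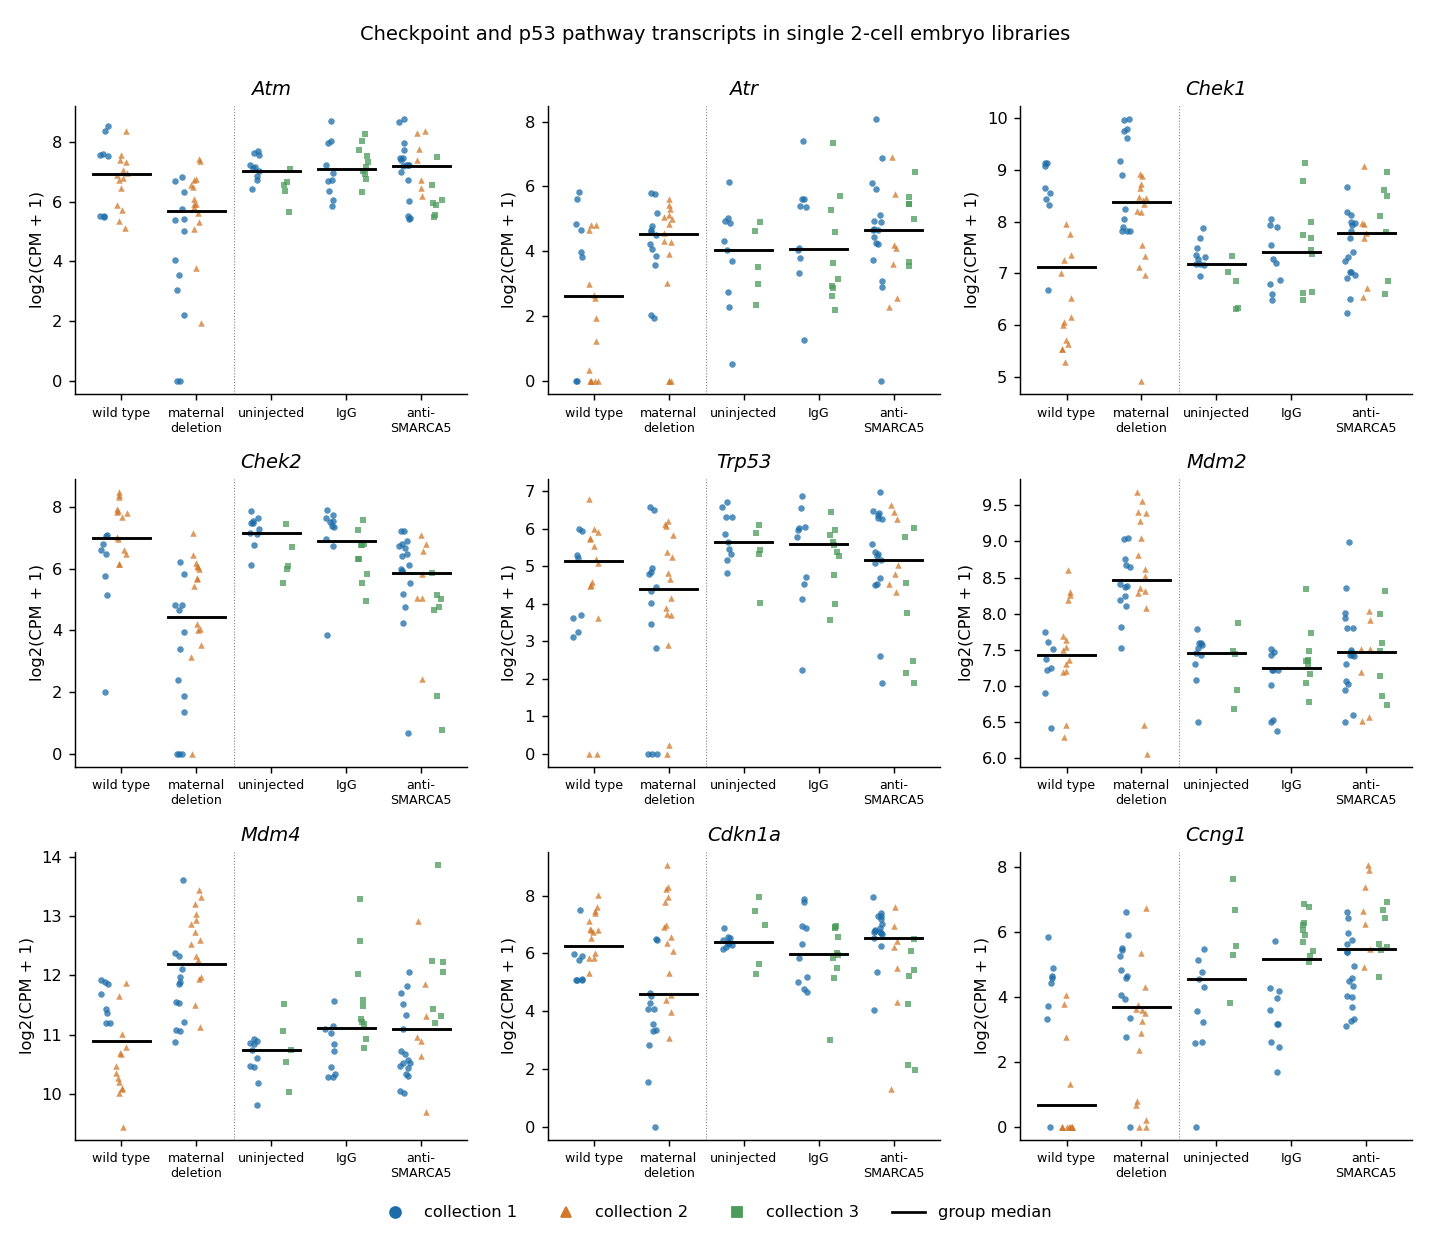
Level of each of the 9 genes as log2(TMM-scaled CPM + 1), 1 point per library, in the 5 groups; colour and shape give the collection and the bar the group median. Chek2 medians were 127.4 CPM in wild type and 20.6 CPM in maternal deletion, and Mdm4 medians 1916 and 4677 CPM; the dotted line parts the 2 experiments, which were scaled separately.

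Maternal deletion against wild type was tested first. Mdm2, Mdm4 and Chek1 rose, Atm and Chek2 fell, and Atr, Trp53, Cdkn1a and Ccng1 did not pass the test (edgeR quasi-likelihood test, adjusted p under 0.05 over the 8518 genes tested). All 9 genes passed the filter on low counts. The 5 of 9 called stand beside 56.6% of all genes called, 30.3% higher and 26.4% lower, so the count itself is near that of any gene in this comparison. The median log2 fold change of the 9 was 0.92, against 0.18 over all genes tested. With scaling by total counts alone the median of all genes was -0.04, and the same numbers of the 9 were called, 3 higher and 2 lower.

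Among the damage-sensing kinases, Atm (ENSMUSG00000034218, chromosome 9, 53439149 to 53536740) had a lowest, median and highest level of 34.05, 121.6 and 370.1 CPM in wild type and of 0.0, 50.2 and 171.3 CPM in maternal deletion. The groups overlapped, with 26 of 28 maternal deletion libraries below the wild-type median and 10 below every wild-type library. Atm fell by 1.203 on the log2 scale (SE 0.39, adjusted p = 0.00774). Within collection 1 the log2 fold change was -2.07 (SE 0.62, adjusted p = 0.00783), and within collection 2 it was -0.52 (SE 0.43, adjusted p = 0.330), so the call rested on collection 1. Of all genes, 43.8% were called in collection 1 and 39.9% in collection 2. Without the 3 libraries that went against their labels it was -1.41 (adjusted p = 0.00213), in a fit that called 60.1% of all genes. Atr (ENSMUSG00000032409, chromosome 9, 95857597 to 95951644), the kinase of replication stress, was scarce, at 0.0, 5.09 and 55.3 CPM in wild type and 0.0, 22.1 and 54.2 CPM in maternal deletion. It was at 0 counts in 7 of 22 wild-type and 3 of 28 maternal deletion libraries, and 23 of 28 maternal deletion libraries lay above the wild-type median. Its log2 fold change of 0.92 (SE 0.60, adjusted p = 0.190) did not pass the test. Atr shares 726 of its 23629 exonic bases with 1700065D16Rik on the opposite strand. The handling of strand is not given in the sources used here, so reads of these 2 genes cannot be told apart within that stretch.

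The 2 effector kinases moved in opposite directions. Chek1 (ENSMUSG00000032113, chromosome 9, 36708482 to 36727065), which acts mainly below ATR, stood at 38.4, 139.7 and 560.8 CPM in wild type and 29.5, 330.0 and 1008 CPM in maternal deletion. The groups overlapped, and 25 of 28 maternal deletion libraries were above the wild-type median. Chek1 rose by 1.08 on the log2 scale, or 2.12-fold (SE 0.34, adjusted p = 0.00590). In collection 2 the change was 1.73 (SE 0.37, adjusted p = 0.000508), while in collection 1, where wild-type embryos already had a median of 384.5 CPM against 68.2 CPM in collection 2, it was 0.55 (SE 0.34, adjusted p = 0.195). Chek2 (ENSMUSG00000029521, chromosome 5, 110840017 to 110874133), which acts mainly below ATM, stood at 2.96, 127.4 and 359.8 CPM in wild type and 0.0, 20.6 and 140.6 CPM in maternal deletion. Of the 28 maternal deletion libraries, 27 lay below the wild-type median, and the exception, at 140.6 CPM, was the library that went against its label. Chek2 fell by 2.05 on the log2 scale, to 0.242 of the wild-type level (SE 0.45, adjusted p = 0.000179). This call held in collection 1 (-2.01, SE 0.68, adjusted p = 0.0178) and in collection 2 (-1.85, SE 0.50, adjusted p = 0.00420). The Chek2 value was -2.28 (adjusted p = 4.48e-05) without the libraries that went against their labels, which were picked from these same data. Over both collections it was the largest change among the 9, but within collection 1 Atm had a larger one and within collection 2 Ccng1, Mdm4 and Atr did.

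Taken per kilobase within each library, Chek2 exceeded Chek1 in 13 of 22 wild-type and in 1 of 28 maternal deletion libraries. The 1 exception was again the library that went against its label. The wild-type collections differed in this: Chek2 was the higher in 12 of 14 libraries of collection 2 and in 1 of 8 of collection 1. The median levels per kilobase in wild-type collection 1 were 101.3 for Chek1 and 40.4 for Chek2, and in collection 2 they were 17.97 and 92.9. In maternal deletion they were 125.2 and 4.22 in collection 1 and 84.4 and 21.7 in collection 2. This ratio is a description and was not tested.

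**Figure D2:**
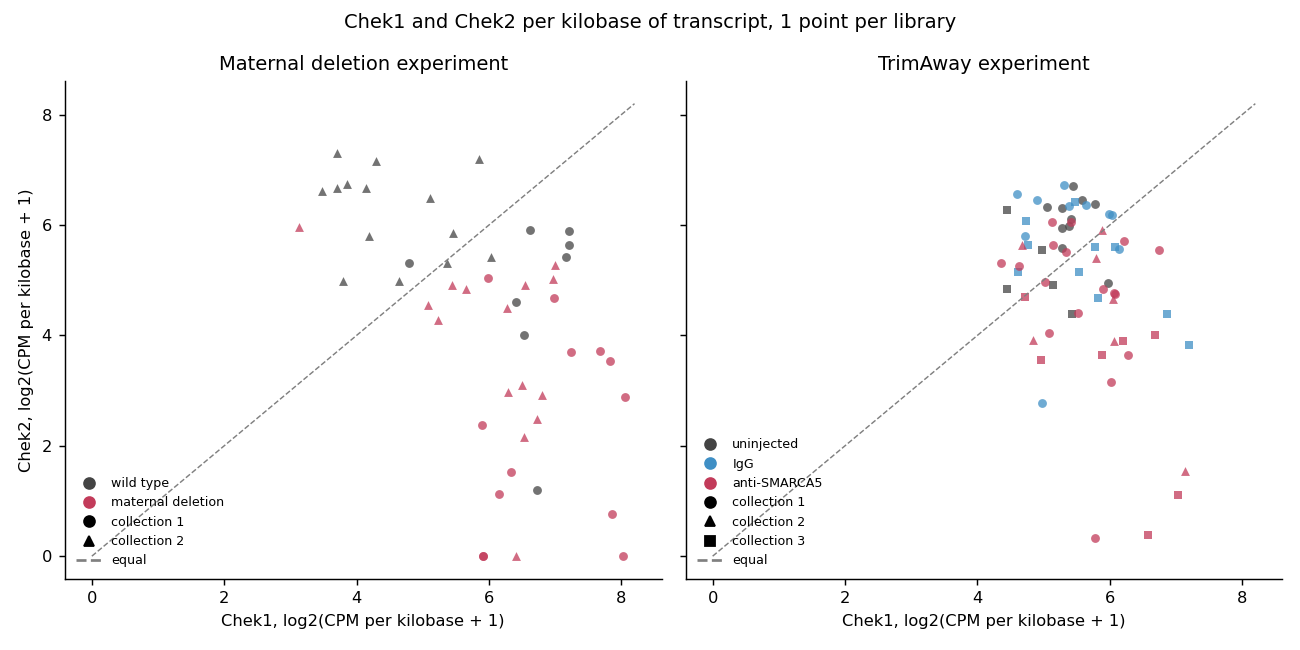
Chek2 against Chek1 in each library, both as log2(CPM per kilobase of transcript + 1), with the deletion experiment on the left and TrimAway on the right; colour gives the group, shape the collection and the dashed line equal levels. Chek2 lies above the line in 13 of 22 wild-type and 1 of 28 maternal deletion libraries, and in 12 of 15 uninjected, 12 of 20 IgG and 8 of 31 anti-SMARCA5 libraries.

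Trp53 (ENSMUSG00000059552, chromosome 11, 69580359 to 69591873), which codes for p53 itself, was low in both groups. Its lowest, median and highest levels were 0.0, 34.2 and 109.5 CPM in wild type and 0.0, 19.98 and 95.4 CPM in maternal deletion, with wide overlap. For Trp53 the change was -0.17 (SE 0.52, adjusted p = 0.792), -0.06 in collection 1 and -0.16 in collection 2. Trp53 was at 0 counts in 2 of 22 wild-type and 4 of 28 maternal deletion libraries, and 20 of 28 maternal deletion libraries lay below the wild-type median.

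Both genes that restrain p53 were higher in maternal deletion embryos. Mdm2 (ENSMUSG00000020184, chromosome 10, 117688888 to 117710758) stood at 77.2, 171.4 and 389.3 CPM in wild type and 65.6, 353.2 and 825.0 CPM in maternal deletion. Of the 28 maternal deletion libraries 26 lay above the wild-type median and 13 above every wild-type library, and the lowest, at 65.6 CPM, was the library that went against its label. Mdm2 rose 2.38-fold (log2 1.25, SE 0.22, adjusted p = 6.31e-06). The change was of like size in collection 1 (1.28, SE 0.25, adjusted p = 0.000180) and collection 2 (1.38, SE 0.33, adjusted p = 0.00148), and it passed in all 10 alternatives run. Mdm4 (ENSMUSG00000054387, chromosome 1, 132989845 to 133025366), the partner of MDM2, stood at 699.5, 1916 and 3867 CPM in wild type and 1890, 4677 and 12520 CPM in maternal deletion. The groups overlapped, with 27 of 28 maternal deletion libraries above the wild-type median and 18 above every wild-type library. Mdm4 rose 2.65-fold (log2 1.40, SE 0.24, adjusted p = 4.01e-06), and the log2 change was 1.52 without the libraries that went against their labels. Its change in collection 2 was 2.15 (SE 0.29, adjusted p = 1.29e-06), against 0.52 in collection 1 (SE 0.29, adjusted p = 0.154), where the wild-type median was 3037 CPM against 1369 CPM in collection 2. Collection and sequencing lane coincide in this experiment and cannot be told apart.

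Of the p53 targets, Cdkn1a (ENSMUSG00000023067, chromosome 17, 29090979 to 29100722), the CDK inhibitor p21, stood at 32.5, 77.3 and 259.7 CPM in wild type and 0.0, 23.2 and 539.4 CPM in maternal deletion. The maternal deletion libraries spread to both sides, with 15 of 28 below every wild-type library and 3 above every one. The log2 fold change of the mean was -0.07 (SE 0.43, adjusted p = 0.905). It was -1.28 in collection 1 (SE 0.57, adjusted p = 0.0697) and 0.44 in collection 2 (SE 0.46, adjusted p = 0.448). The maternal deletion medians were 15.7 CPM in collection 1 and 93.5 CPM in collection 2, against 43.4 and 111.5 CPM in wild type. Ccng1 (ENSMUSG00000020326, chromosome 11, 40748552 to 40755311), which codes for cyclin G1, was at 0 counts in 11 of 22 wild-type and 3 of 28 maternal deletion libraries. Its levels were 0.0, 0.737 and 56.7 CPM in wild type and 0.0, 11.8 and 104.7 CPM in maternal deletion, and 22 of 28 maternal deletion libraries lay above the wild-type median. The wild-type medians were 21.7 CPM in collection 1 and 0.0 CPM in collection 2, against 24.1 and 8.49 CPM in maternal deletion. The log2 fold change was 1.30 (SE 0.73, adjusted p = 0.120). It was 0.58 in collection 1 (SE 0.61, adjusted p = 0.460) and 2.51 in collection 2 (SE 1.11, adjusted p = 0.0663). With the collection as a replicate block it was 1.59 (SE 0.69, adjusted p = 0.0435), beside 57.6% of all genes, the 1 call of the 9 that the block changed in this comparison.

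An interaction term asked whether the deletion acted differently in the 2 collections. None of the 9 genes passed (edgeR, 2 at an unadjusted p under 0.05), and 0.763% of the 8518 genes did. Mdm4 came nearest, with log2 fold changes that differed by 1.503 (SE 0.41, adjusted p = 0.0553), and it passed with scaling by total counts (adjusted p = 0.0360). The values were 1.59 (SE 0.75, adjusted p = 0.279) for Cdkn1a, 1.45 (SE 0.77, adjusted p = 0.346) for Atm and 1.01 (SE 0.51, adjusted p = 0.319) for Chek1. For Mdm2 and Chek2 they were -0.07 (SE 0.43) and 0.06 (SE 0.86).

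**Figure D3:**
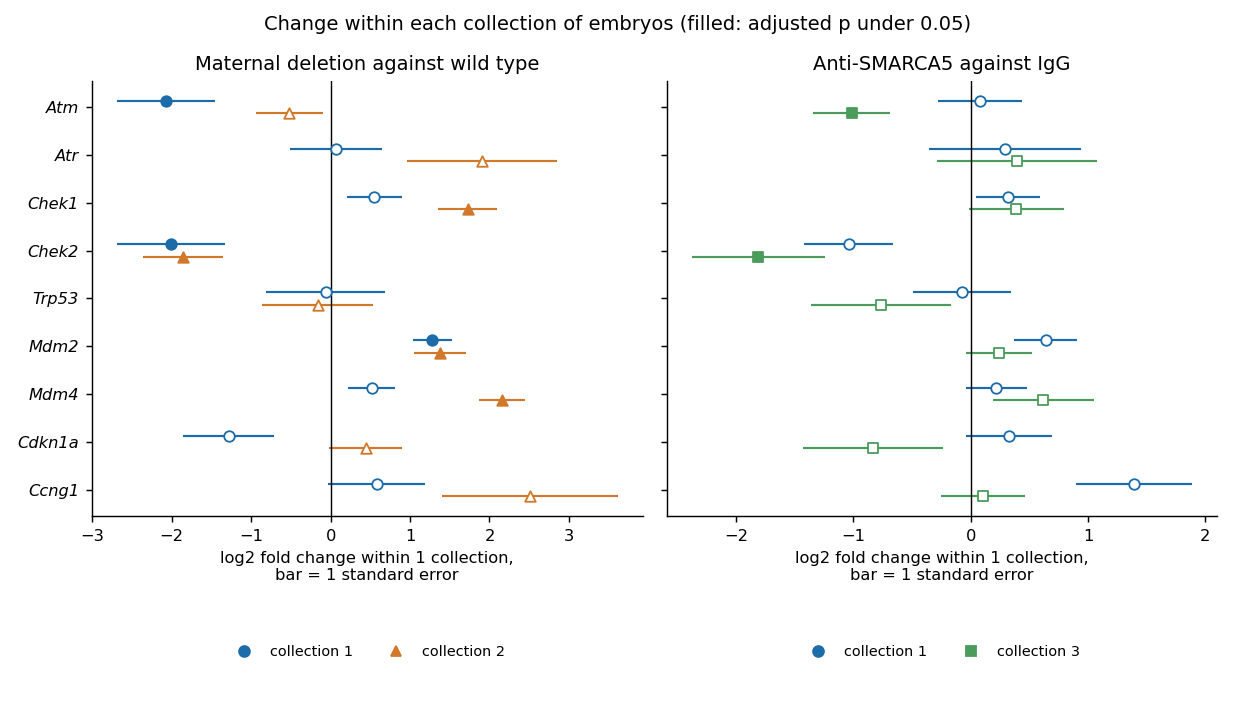
Log2 fold change of each gene within single collections, with bars of 1 standard error, for maternal deletion against wild type (left) and anti-SMARCA5 against IgG (right); filled symbols have an adjusted p under 0.05. Mdm2 and Chek2 are filled in both collections of the deletion, Atm in collection 1 only, and Chek1 and Mdm4 in collection 2 only.

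Anti-SMARCA5 TrimAway embryos were compared with IgG embryos next, and the SMARCA5 protein was not measured in these libraries. No member passed in this comparison (edgeR, 10447 genes tested), in which 3.03% of all genes were called. At an unadjusted p under 0.05 there were 2 of the 9, beside 2762 of all genes. DESeq2 called 1 of the 9, Chek2, and 9.64% of all genes. The median log2 fold change of the 9 was 0.16, against 0.04 over all genes.

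Over all collections Chek2 was the member with the largest change. Its lowest, median and highest levels were 13.4, 117.8 and 237.9 CPM with IgG and 0.598, 56.7 and 149.1 CPM with anti-SMARCA5. The groups overlapped, with 28 of 31 anti-SMARCA5 libraries below the IgG median. Its log2 fold change was -1.01 (SE 0.33, adjusted p = 0.0608). The call depended on the fit: with the collection as a replicate block Chek2 fell by 1.35 (SE 0.35, adjusted p = 0.00622), in a fit that called 25.8% of all genes. Leaving out the 1 anti-SMARCA5 library without Trim21 counts gave -1.06 (adjusted p = 0.0458), with 5.02% of all genes called. Within collection 1 the value was -1.04 (SE 0.38, adjusted p = 0.115) and within collection 3 it was -1.81 (SE 0.57, adjusted p = 0.0353), beside 0.857% and 16.5% of all genes called. The oocyte markers summed to a median of 1362 CPM with IgG and 1878 CPM with anti-SMARCA5, and the 2-cell markers to 543.3 and 509.3 CPM. By collection the 2-cell medians went in opposite directions, from 542.1 with IgG to 710.7 CPM in collection 1 and from 553.1 to 141.0 CPM in collection 3. Those of the oocyte markers were 1047 and 1449 CPM in collection 1 and 2198 and 3167 CPM in collection 3. Their part in these results was not tested.

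Atm, the kinase upstream of CHK2, stood at 57.5, 137.1 and 418.7 CPM with IgG and 41.5, 147.1 and 439.3 CPM with anti-SMARCA5 (log2 fold change -0.10, SE 0.25, adjusted p = 0.816). Collection 3 alone gave -1.02 (SE 0.33, adjusted p = 0.0397) and collection 1 alone 0.08 (SE 0.36, adjusted p = 0.913). Ccng1 stood at 2.24, 35.1 and 116.1 CPM with IgG and 7.55, 43.5 and 269.1 CPM with anti-SMARCA5 (0.72, SE 0.39, adjusted p = 0.226). Without collection 3 the Ccng1 value was 2.25 (adjusted p = 0.0304, 3.78% of all genes called). That fit set anti-SMARCA5 collections 1 and 2, with medians of 22.8 and 98.8 CPM, against IgG collection 1, with 9.59 CPM. Collection 2 has no kept IgG library, and without it the Ccng1 value was 0.19 (SE 0.38, adjusted p = 0.760). The IgG median was 62.7 CPM in collection 3.

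Mdm2 and Mdm4, which rose with the deletion, did not pass here. Mdm2 medians were 150.9 CPM with IgG (81.8 to 322.2) and 175.5 CPM with anti-SMARCA5 (89.5 to 510.2), which is 0.37 on the log2 scale (SE 0.18, adjusted p = 0.180). Mdm4 medians were 2230 CPM (1244 to 9956) and 2186 CPM (831 to 14970), which is 0.16 on that scale (SE 0.28, adjusted p = 0.721). For Chek1, Atr, Trp53 and Cdkn1a the log2 fold changes were 0.24 (SE 0.23), 0.27 (SE 0.46), -0.08 (SE 0.33) and 0.14 (SE 0.34). All groups overlapped for each of these genes.

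Against uninjected embryos, Chek1 and Mdm4 rose and Chek2 fell in anti-SMARCA5 embryos (edgeR, 10750 genes tested). These 3 of 9 stand beside 27.9% of all genes called, 17.5% higher and 10.4% lower. Chek2 stood at 45.6, 141.9 and 234.5 CPM in uninjected embryos, and 29 of 31 anti-SMARCA5 libraries lay below that median. Its log2 fold change was -1.10 (SE 0.34, adjusted p = 0.0161). Chek1 stood at 79.0, 144.1 and 234.4 CPM in uninjected and 74.0, 220.0 and 533.6 CPM in anti-SMARCA5 embryos, with 13 of 31 above every uninjected library (0.72, SE 0.23, adjusted p = 0.0180). Mdm4 stood at 905.2, 1717 and 2926 CPM in uninjected embryos, and 18 of 31 anti-SMARCA5 libraries lay above that median (0.94, SE 0.29, adjusted p = 0.0150). The calls of Chek1 and Mdm4 depended on the scaling. With total counts alone the median of all genes moved from 0.13 to -0.29, Chek1 was 0.10 (adjusted p = 0.703), Mdm4 was 0.34 (adjusted p = 0.265), and Chek2 was -1.37 and still passed (21.2% of all genes called). The split of all calls moved with it, from 1885 higher and 1114 lower to 409 higher and 1874 lower. Without collection 1, which leaves 14 libraries against 5, no member passed and 0.00948% of all genes did, and Chek2 was -0.94 (adjusted p = 0.382). Collection 3 alone, 7 libraries against 5, went the other way, with 26.7% of all genes called and Chek1 at 1.36 (adjusted p = 0.0243) and Mdm4 at 1.55 (adjusted p = 0.0266), while Chek2 was -1.75 (adjusted p = 0.0696). In collection 1 alone Chek2 was the 1 member called (-1.02, adjusted p = 0.0396), beside 15.6% of all genes. Without collection 3, Chek1 was 0.44 (adjusted p = 0.209), Mdm4 was 0.65 (adjusted p = 0.0937) and Ccng1 was 1.92 (adjusted p = 0.0169), with 18% of all genes called. That fit holds anti-SMARCA5 collection 2, which has no uninjected library, and Ccng1 ran from 0.30 to 1.92 with 1 collection left out. Atr lay at the threshold, at 1.27 on the log2 scale (SE 0.50, adjusted p = 0.0506, and 0.0431 with the replicate block, which called 31.9% of all genes). Without the library lacking Trim21 counts Atr was 1.27 (adjusted p = 0.0499, 28% of all genes called), and it passed in 6 of the 13 alternatives run, with adjusted p from 0.0363 to 0.402.

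Between IgG and uninjected embryos, the 2 controls, no member was called (edgeR, 0.0% of 9915 genes called, 1440 genes and 2 of the 9 at an unadjusted p under 0.05). DESeq2 called 261 genes (2.63%), among them Mdm4 with 0.82 (adjusted p = 0.0255), against 0.77 (SE 0.25, adjusted p = 0.164) in edgeR. Chek2, with medians of 117.8 and 141.9 CPM, had a log2 fold change of -0.08 (SE 0.25). The comparisons of anti-SMARCA5 and of IgG with uninjected embryos share the uninjected libraries, and Mdm4 had values of 0.94 and 0.77 in them. Chek1 had 0.72 and 0.47, and Chek2 had -1.10 and -0.08.

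**Figure D4:**
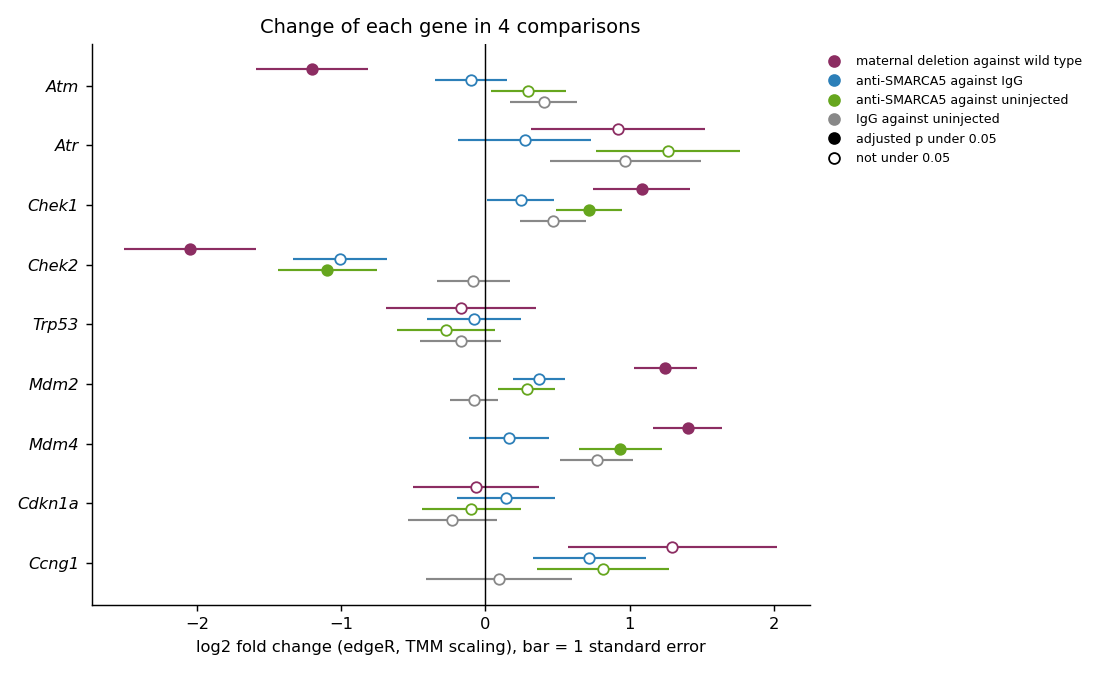
Log2 fold change of each gene in the 4 comparisons, with bars of 1 standard error; filled points have an adjusted p under 0.05 (edgeR). Of the 9 genes, 5 are filled for maternal deletion, 3 for anti-SMARCA5 against uninjected and none for the other two; Chek2 lies at -2.05, -1.01, -1.10 and -0.08.

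Whether the deletion and TrimAway changes differed was tested as a contrast of the 4 groups, which share no samples. Mdm2 and Mdm4 differed, 2 of 9 beside 19.2% of the 12035 genes tested. For Mdm2 the deletion effect exceeded the TrimAway effect by 0.83 on the log2 scale (SE 0.28, adjusted p = 0.0247), and by 0.75 (adjusted p = 0.0709) with the replicate block. For Mdm4 the excess was 1.18 (SE 0.36, adjusted p = 0.0154), and 1.01 (adjusted p = 0.0374) with the block. With all libraries of any depth Mdm2 no longer passed (0.66, adjusted p = 0.140) and Atm did (-1.25, adjusted p = 0.0308). Chek2, which passed in the deletion and not against IgG, had a difference of -1.08 (SE 0.56, adjusted p = 0.162), and Atm one of -1.17 (SE 0.46, adjusted p = 0.0608). The design, the collections and the plates differ between the experiments along with the method of removal.

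The wider pathway was read from 4 lists of genes, none of them members. In maternal deletion, the damage signalling list had 2 of 25 tested genes higher and 9 lower, with a median log2 fold change of -0.34 against 0.18 over all genes. Clspn, the adaptor that lets ATR activate CHK1, fell by 1.77 (adjusted p = 0.000476), from a median of 99.7 to 20.9 CPM, and all 28 maternal deletion libraries were below the wild-type median. Topbp1, an activator of ATR, fell by 1.03, Rad9, part of the clamp that loads it, by 1.49, and Mdc1, a scaffold at breaks, by 1.43. Rpa1, which coats single-stranded DNA, rose by 1.92 (adjusted p = 0.00100). The cell cycle list had 2 of 15 higher and 5 lower. Cdk1, the mitotic kinase, fell by 2.67 and its activating phosphatase Cdc25c fell by 2.62. Cdk2 fell by 2.34 and its partner cyclin E1 (Ccne1) fell by 1.52. Cdkn1b, the CDK inhibitor p27, rose by 2.65, and all 28 maternal deletion libraries were above the wild-type median of 0.945 CPM.

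The list of genes that control p53 had 4 of 16 higher and 5 lower. Those higher included the ubiquitin ligases Rfwd2, which rose by 1.2, and Rchy1, by 1.05, both of which act on p53, and the kinase Hipk2, by 1.71. Those lower included the acetyltransferase Ep300, which fell by 1.35, and the deacetylase Sirt1, by 2.69. Of the other p53 targets, 1 of 18 tested was higher and 7 were lower, with a median of -0.44. Tigar, listed as 9630033F20Rik, fell by 2.87 (adjusted p = 3.61e-07), Sesn2 by 2.50, Ei24 by 2.00 and Gtse1 by 1.57, while Ddb2, a DNA repair gene, rose by 1.57. The median of the target list was -1.20 in collection 1 (11 tested) and 0.50 in collection 2 (21 tested). The genes tested were not the same, so these medians do not show whether the same targets changed sign. Of those tested, 1 was higher and 6 lower in collection 1, and 3 were higher and 5 lower in collection 2. Of all genes, 43.8% and 39.9% were called in these fits. Over both collections, the share called in each of the 4 lists was below the 56.6% of all genes.

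In anti-SMARCA5 against IgG the 4 lists had 0 of 28, 1 of 16, 0 of 18 and 1 of 23 genes called (damage signalling, cell cycle, p53 control and p53 targets, in that order). With the replicate block these were 6 of 28, all lower, 4 of 16, 7 of 18 and 4 of 23, beside 25.8% of all genes. Ei24 was the target called without the block, and it fell by 0.87 (adjusted p = 0.0413). Against uninjected embryos 4 of 28, 4 of 16, 5 of 18 and 8 of 23 genes of the lists were called, beside 27.9% of all genes. Rfwd2 rose by 1.14 and Hipk2 by 0.99 there, Clspn fell by 0.89 and Ep300 by 0.44, and Tigar (9630033F20Rik) fell by 1.10. Of the p53 targets 4 were higher and 4 lower in that comparison, with a median log2 fold change of -0.0016 against 0.13 over all genes. Plk2, a p53 target that codes for a kinase, rose by 1.92 (adjusted p = 0.00401). In IgG against uninjected no gene of the 4 lists was called by edgeR, in a fit that called 0.0% of all genes. There the log2 fold change of Rfwd2 was 1.05 (SE 0.28, adjusted p = 0.161). In anti-SMARCA5 against IgG that of Rfwd2 was 0.09 (SE 0.26, adjusted p = 0.838). The other genes named had 0.32 (Hipk2), -0.19 (Clspn), 0.09 (Ep300), -0.07 (Tigar) and 0.80 (Plk2) in IgG against uninjected.

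**Figure D5:**
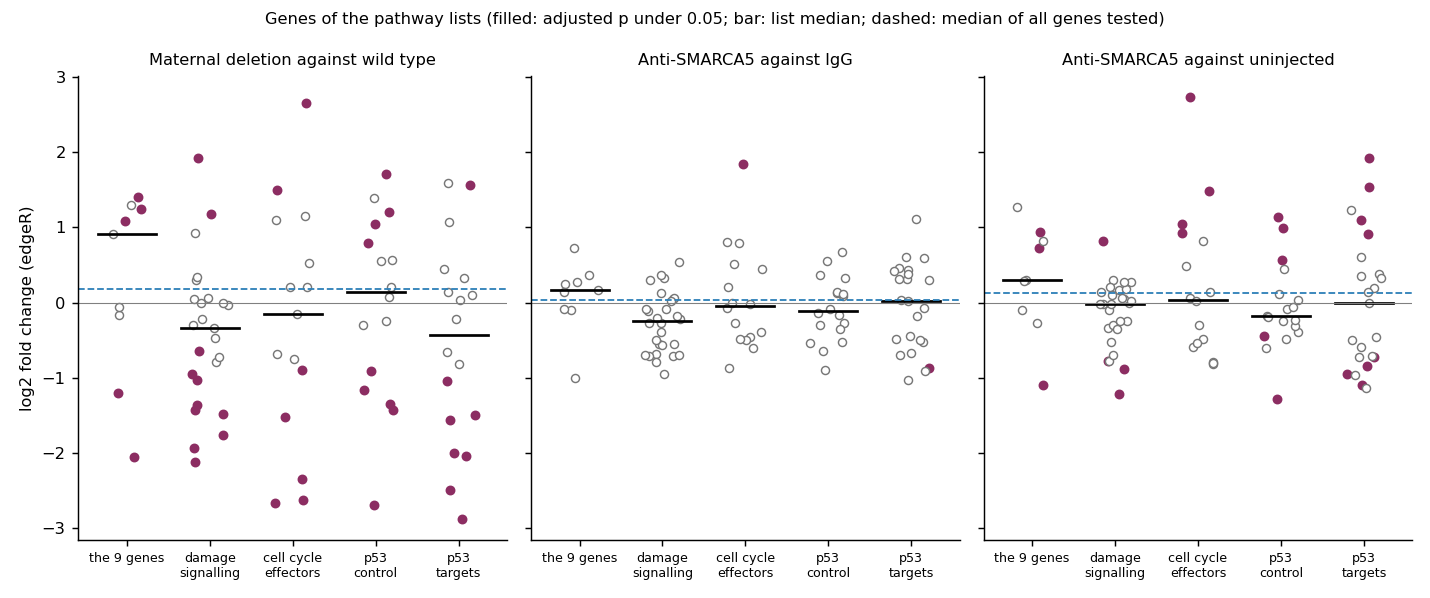
Log2 fold change of the 9 genes and of the tested genes of the 4 lists in 3 comparisons; filled points have an adjusted p under 0.05, the bar is the median of each list and the dashed line the median of all genes tested. In maternal deletion the medians are 0.92 for the 9 genes, -0.34 for damage signalling, -0.15 for cell cycle, 0.14 for p53 control and -0.44 for p53 targets.

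The genes whose levels ran most like each member were listed by the Pearson correlation of log2(CPM + 1), taken as deviations from the mean of each experiment, over the 116 libraries and the 5015 genes with a mean of at least 4 on that scale. The libraries share their group and their depth, so these values are a description. Mdm4 was most like Oog3, an oocyte gene (0.84, and 0.84 in each experiment alone). Chek1 was most like Dcun1d1 (0.83) and the oocyte-type gene Nlrp9c (0.82). Chek2 was most like Gcsh (0.84) and Pa2g4 (0.83), and Cdkn1a like Chchd10 (0.83), Gm2a (0.79) and Sesn2 (0.75). Atm was most like G2e3 (0.79), Trp53 like Fpgs (0.69), Ccng1 like Tmem65 (0.67), Mdm2 like Ergic2 (0.65) and Atr like Snx13 (0.54). Among the members, the pair with the highest value was Chek1 and Mdm4 (0.60), followed by Atm and Chek2 (0.57), and the lowest were Chek1 and Cdkn1a (-0.55) and Chek1 and Chek2 (-0.49). Trp53 had 0.40 with Cdkn1a, -0.25 with Mdm2 and -0.14 with Ccng1, its 3 targets here.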

How the data were processed

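The authors deposited 2 tables of raw read counts per gene, 1 per experiment. Per the file headers, reads were aligned with HISAT2 to GRCm38 with ERCC sequences. The submitters' processing notes name HISAT2 2.1.0, Trim Galore 0.6.5 and cutadapt 2.3. Handling of strand and of multiply matching reads is not given in the sources used here. Among low values odd counts outnumbered even ones (134662 cells of 1, 30228 of 2), for a reason not given there.

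From these counts, lines with the same gene ID (57 IDs) were summed, and embryo libraries with at least 100000 counts were kept (116 of 135). The main test was edgeR 4.0.16 in R 4.3.3 (TMM, filterByExpr, robust quasi-likelihood), 1 fit per comparison over all genes, with Benjamini-Hochberg adjusted p-values called under 0.05. The SE is the size of the log2 fold change over the root of F. Alternatives used DESeq2 1.42.0, other scalings, filters, depth minimums, the collection as a block, and collections left out. Collection numbers come from the labels and mark pools, and the deviations of same-numbered group means were correlated across genes (0.54 for the deletion, 0.59 for anti-SMARCA5 and IgG, 0.079 for anti-SMARCA5 and uninjected, 0.42 for the controls). The fit was tested on simulated data. With 200 changed genes it called 10 of 93 genes changed 2-fold and 54 of 91 changed 4-fold in the deletion design, and 24 of 95 and 79 of 86 in the anti-SMARCA5 and IgG design. In the deletion design these 200 were among 7995 genes, whereas the real fit called 4825 of 8518. The adjustment of p was therefore stricter in that simulation, and its shares do not give the power of the real deletion fit.

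CPM per kilobase used the principal GENCODE M21 transcript. Upstream sequences and start sites are those of RefSeq on GRCm38.p6, and all 9 members matched by symbol. The members and lists were chosen with earlier results of these data known. Named list genes are at most the 5 with the smallest adjusted p of each list and comparison and only those whose mean log2 CPM reached 4.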

Additional observations from a re-analysis of the deposited data

Results flagged for a closer look

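Mdm2 and Mdm4 are listed because their changes differed between the 2 experiments in a test of the difference itself. The log2 fold change in maternal deletion exceeded that in anti-SMARCA5 against IgG by 0.83 for Mdm2 and by 1.18 for Mdm4. Mdm4 is also listed for its counts in the 3 wells without an embryo, which took no part in the comparisons. The well with 1875 counts in all held 19 of Mdm4, the well with 823 held 3 and the well with 453 held 1, and the other 8 members had 0 counts there.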

How the results depend on the processing

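The p53 and checkpoint genes called in maternal deletion numbered 5, and 3 to 4 when 1 collection was left out. Mdm2 and Chek2 passed in all 10 alternatives run, Mdm4 and Atm in 9 and Chek1 in 8. Of these alternatives, the fit without libraries that went against their labels was chosen after seeing the data. Chek1 was 0.94 (adjusted p = 0.0616) at a depth minimum of 500000 counts. The log2 fold change of Cdkn1a ran from -1.28 to 0.44 with 1 collection left out. Genes called in all numbered 2801 to 3879 in that case and 10416 without a filter, where more genes were tested, against 4825.

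In anti-SMARCA5 against IgG, 317 genes were called, and 1007 with DESeq2, 64 with total counts, 3010 without a filter, 623 with all libraries, 150 at 500000 counts, 2691 with the replicate block and 0 to 591 with 1 collection left out. Alternatives chosen after seeing the data gave 521 without the library lacking Trim21 counts, 90 within collection 1 and 1576 within collection 3. Members called numbered 1 with DESeq2, without a filter, with the block and without that library, 2 within collection 3, and 0 to 1 with 1 collection left out. Mdm4 turned to -0.035 with total counts, Atm to 0.020 with all libraries and 0.079 within collection 1, and Cdkn1a to -0.13 with the block and -0.83 within collection 3. With 1 collection left out Cdkn1a ran from -0.26 to 0.20 and Atm from -0.27 to 0.14.

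In anti-SMARCA5 against uninjected, 6184 genes were called without a filter, 1656 within collection 1, 2318 within collection 3 and 1 to 2921 with 1 collection left out, against 2999. Members called numbered 1 with total counts and within collection 1, 2 within collection 3, and 0 to 4 with 1 collection left out. With total counts Atm was -0.16 and Mdm2 -0.21. Within collection 1 Cdkn1a was 0.55, and within collection 3 Atm was -0.17 and Ccng1 -0.20. With 1 collection left out Cdkn1a ran from -1.11 to 0.37.

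In IgG against uninjected, 261 genes were called with DESeq2, 881 without a filter and 0 to 1 with 1 collection left out, and DESeq2 called 1 member. Ccng1 was -0.17 with total counts and -0.31 with the block, and Chek2 was 0.034 with the block. With 1 collection left out Chek2 ran from 0.024 to 0.062, Mdm2 from -0.27 to 0.079, Cdkn1a from -0.88 to 0.25 and Ccng1 from -0.30 to -0.29.

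For the difference between collections, total counts, relative log expression factors and no filter each called 1 member, Mdm4, and Chek2 was -0.10 with relative log expression factors and -0.27 with all libraries. For the difference between experiments, 1 member was called at 500000 counts and with the block, 2 with all libraries but with Atm in place of Mdm2, and Trp53 was 0.10 with the block. The shares of all genes called in these alternatives for the 2 differences are not given here, so the counts of members cannot be set beside them. The block otherwise changed the calls of Ccng1 (deletion), Chek2 (IgG) and Atr (uninjected), as given above, and no other call of a member. The cause of these shifts was not tested except where fewer or more genes or libraries entered by construction. Low counts limit Atr, Ccng1 and Trp53, and wild type had the lowest median depth.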
